A study of Mus musculus with 24 samples.

Results

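The genes described here encode the subunits, activators and assembly factors of the proteasome, in 3 tissues of Thumpd1 knockout and wild-type mice. Members were the genes whose symbol is Psm, a letter from a to g and a number, with or without a closing letter. Of the 55450 genes in the table, 49 met this rule. By role they were 7 alpha and 7 constitutive beta subunits of the 20S core, 6 ATPases and 11 other subunits of the 19S cap, 7 immune and thymus members, 1 testis-type subunit, 7 assembly chaperones and 3 other activators or inhibitors. RNA had been sequenced from cerebellum, liver and testes, with 4 wild-type (WT) and 4 homozygous Thumpd1 knockout (KO) libraries in each tissue. The KO mice came from C57BL/6N zygotes edited with Cas9 and a pair of guides against Thumpd1, and controls were age-matched littermates of 6 to 12 weeks. The KO is in the germline, and the labels do not say which founder line was sequenced. Thumpd1 helps the acetyltransferase Nat10 to modify serine and leucine tRNAs.

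The proteasome is the chamber in which cells degrade proteins that carry ubiquitin. Rings of alpha subunits gate the 20S core, and rings of beta subunits hold its active sites, which belong to Psmb5, Psmb6 and Psmb7. In cells that answer interferon, Psmb8, Psmb9 and Psmb10 replace these to form the immunoproteasome, and Psme1 and Psme2 form its PA28 cap. In male germ cells Psma8 takes the place of Psma7, and the activator Psme4, also called PA200, serves the degradation of histones in spermatids. The transcription factor Nfe2l1 raises the genes of most subunits when proteasome capacity is short, after the protease Ddi2 has cut it free.

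Thumpd1 itself checked the labels. In WT libraries it lay between 9.19 and 26.3 counts-per-million of the library total (CPM), and in KO libraries between 0 and 1.14 CPM. Total counts per library ran from 16353797 to 37889615. In liver 17.5% to 31.0% of WT counts came from 6 abundant noncoding RNAs, against at most 7.41% in any library of the other tissues, so a liver CPM and a cerebellum CPM are not on one scale. The members together took 1924 to 2359 CPM in WT liver, 1655 to 1738 CPM in WT cerebellum and 4012 to 4151 CPM in WT testes. Counts came from whole tissue, in which fewer cells of a type and less RNA per cell cannot be told apart.

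A promoter window of RefSeq (assembly GRCm38.p6, 300 bases, of which 250 precede the start site) was at hand for 41 of the 49 members. These windows were searched on both strands for the core of the antioxidant response element, TGACNNNGC, which binds factors of the Nfe2l1 family, for the core of the interferon-stimulated response element, which is GAAA, any 2 bases and GAAA again, and for the core of the gamma-activated site, TTCNNNGAA. Matches were counted per gene, since a gene can have several windows, over 27025 genes with 32851 windows. The first was found in 6 members, or 14.6%, against 14% of all genes (12.4% of all windows). The second was found in 5 members, or 12.2%, against 3.99% of all genes (3.44% of windows). These 5 were Psmb3, Psmd4, Psmd9, Psme1 and Psmg4, of which only Psme1 is an immune member. The third was found in 3 members, or 7.32%, against 9.55% (8.3% of windows). The motifs are short and a match does not show binding. The stretches printed are those of 2 active-site subunits, of 2 immune members and of an assembly factor that fell in KO testes, with the match in capitals and each read 5′ to 3′ on the gene's strand.
Psmb5, chr14:54618023-54618052, minus strand: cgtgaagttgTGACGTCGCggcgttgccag
Psmb6, chr11:70525338-70525367, plus strand: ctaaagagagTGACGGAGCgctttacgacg
Psmb8, chr17:34198088-34198117, plus strand: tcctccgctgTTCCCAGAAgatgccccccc
Psme1, chr14:55578493-55578522, plus strand: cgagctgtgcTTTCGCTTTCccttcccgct
Psmg4, chr13:34162969-34162998, plus strand: gcgcgcatctGAAAGTGAAAgagcgttccg
The matches in Psmb5 and Psmb6 begin 47 and 9 bases before the start site, and that of Psmb8 97 bases before it. Those of Psme1 and Psmg4 lie within the first transcribed bases, and in Psme1 the motif reads on the opposite strand.

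The first comparison asked how the proteasome genes are used in the 3 WT tissues. In CPM a few genes were far higher in testes than in the other tissues. Psma8, the testis-type alpha subunit, had 109, 103, 107 and 109 CPM in the WT testes libraries. It had 0.371 to 0.902 CPM in WT liver and 0.13 to 0.243 CPM in WT cerebellum, the latter from 3 to 6 counts per library. It passed the filter on low values, which asked for 1 CPM in at least 4 libraries, only through testes, so the difference is given without a test. Psma7, its constitutive counterpart, went the other way, with 15.1 to 16.8 CPM in testes against 39.8 to 60.3 CPM in liver.

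Members of the ordinary 26S proteasome were among them. Psma6, an alpha subunit of the core, had 237, 214, 226 and 227 CPM in WT testes but 32.9 to 40.4 CPM in liver and 29.0 to 29.9 CPM in cerebellum. Psmc3, a cap ATPase, had 395 to 414 CPM in testes against 58.7 to 76.4 CPM in liver and 48.2 to 51.5 CPM in cerebellum. No testes library overlapped a library of another tissue for either gene. The exons of Psmc3 overlap those of Slc39a13 on the other strand, and the strand setting of the counting is not given in the sources used here, so its counts are uncertain.

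The activators and the inhibitor outside the immune set were also highest in testes. Psme4 had 707 to 782 CPM in WT testes, 82.5 to 106 CPM in liver and 96.7 to 98.7 CPM in cerebellum. Psmf1, which encodes the inhibitor PI31, had 338, 352, 371 and 360 CPM in testes against 22.8 to 31.1 CPM in liver and 35.0 to 37.2 CPM in cerebellum. Psme3, the nuclear activator PA28 gamma, was less uneven, with 115 to 118 CPM in testes, 74.4 to 78.2 CPM in cerebellum and 52.8 to 53.8 CPM in liver. The log2 differences between testes and liver were 2.06 ± 0.06 for Psme4 and 2.70 ± 0.07 for Psmf1 (SE, n = 4 per tissue, adjusted p = 5.64e-12 and 1.19e-12 by limma-voom with TMM factors).

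Levels compared within a library do not depend on how libraries are scaled. Counts divided by the summed exon length of a gene were therefore set over the median of the gene's own class. In WT testes Psma6 stood 12.6 ± 0.4 times above the median alpha subunit (SD, n = 4), against 1.94 ± 0.13 times in liver and 1.94 ± 0.04 times in cerebellum. In testes Psma5 lay at this median, and its exons overlap those of 1700010K24Rik on the other strand, so the testes value is uncertain. Psmc3 stood 5.02 ± 0.07 times above the median ATPase in testes and 1.02 ± 0.02 times in liver. The highest alpha subunit exceeded the lowest 35.4 times in WT testes, where these were Psma6 and Psma7, but 2.92 times in liver and 2.14 times in cerebellum. For the ATPases these ratios were 16.3 in testes, 4.16 in liver and 6.35 in cerebellum. By this measure the transcripts of the alpha ring were least even in testes. The same order for the ATPase ring rests on Psmc3, whose counts are uncertain. Without it the highest and lowest ATPases in testes were Psmc5 at 1.40 and Psmc6 at 0.307 times the median. In cerebellum they were Psmc5 at 2.43 and Psmc2 at 0.383 times, so the order of the ATPase ring is open.

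Other subunits had their own tissue pattern on this scale. Psmc2, an ATPase, stood at 1.33 ± 0.01 times the class median in WT testes but at 0.364 ± 0.020 times in liver and 0.383 ± 0.010 times in cerebellum (SD, n = 4). Psmc5, another ATPase, was the highest of its class in cerebellum at 2.43 ± 0.09 times the median, against 1.06 ± 0.04 times in liver and 1.40 ± 0.02 times in testes. Psmd8 stood at 4.51 ± 0.17 times the median of the other cap subunits in testes, 2.10 ± 0.12 times in liver and 1.41 ± 0.05 times in cerebellum, and these ranges did not overlap. Psmd2, the scaffold that binds the ATPase ring, was the highest of the other cap subunits in each tissue, from 2.40 to 4.58 times the median. Psmd14, which removes ubiquitin from substrates, was at 0.503 ± 0.031 times in testes and 0.986 ± 0.014 times in cerebellum. Psmb6 led the beta subunits in testes at 3.11 ± 0.27 times, whereas Psmb5 led them in liver at 2.92 ± 0.05 times.

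The assembly chaperones were mostly low. Psmg2 had 18.6 to 19.6 CPM in WT testes, 6.59 to 8.98 CPM in cerebellum and 3.78 to 6.11 CPM in liver. Its partner in the same dimer, Psmg1, had 12.97 to 15.6 CPM in testes and 9.05 to 12.1 CPM in liver. Psmg3 went the other way with 3.30 to 4.07 CPM in testes and 6.81 to 10.2 CPM in liver, and Psmg4, its partner, had no WT library over 2.67 CPM. The order of Psmg1 turned with the scaling, since with TMM factors it was lower in testes than in liver by 0.54 on the log2 scale (adjusted p = 0.00041 by limma-voom).

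**Figure D1:**
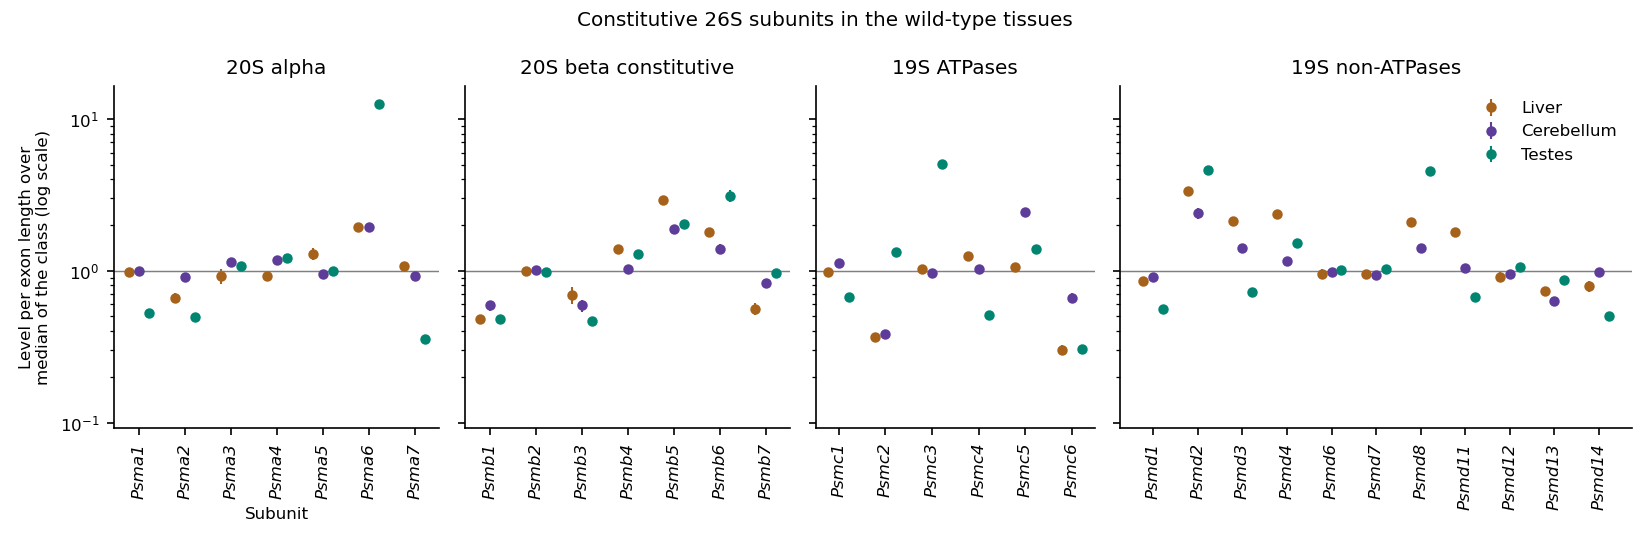
Level per exon length of each constitutive subunit over the median of its class in the same library (log axis), as the mean of 4 WT libraries with bars of 1 SD. In testes Psma6 lies 12.6 times and Psmc3 5.02 times above their class medians, whereas in liver and cerebellum Psma6 lies 1.94 times above.

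The immune members were highest in liver. Psmb8 had 13.3, 13.1, 12.5 and 9.04 CPM in the WT liver libraries, against 0.381 to 1.04 CPM in cerebellum and 0.654 to 0.962 CPM in testes. Psmb9 had 7.04 to 10.3 CPM in liver and below 1 CPM in every WT library of the other tissues. Psmb10 had 15.4 to 19.5 CPM in liver, 4.34 to 6.33 CPM in cerebellum and 2.24 to 2.48 CPM in testes. Liver did not overlap the other tissues for any of these 3 catalytic subunits.

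The PA28 genes were highest in liver as well. Psme1 had 58.6 to 67.9 CPM in WT liver, 8.31 to 10.4 CPM in cerebellum and 8.2 to 10.7 CPM in testes. Psme2 had 26.6 to 32.6 CPM in liver against at most 6.58 CPM elsewhere. With TMM factors Psme1 was higher in testes than in cerebellum by 0.30 on the log2 scale, with a 95% interval from 0.064 to 0.54 (adjusted p = 0.0195 by limma-voom). The CPM ranges overlapped, however, and this sign did not hold under each of the 4 scalings given below. The difference of Psme2 was 0.17, with an interval from -0.10 to 0.44. Psmb11, the subunit of the thymus proteasome, had 0 counts in every WT library of liver and cerebellum and 3 to 8 counts in testes. Exons of Psmb8, Psmb9 and Psme1 overlap genes on the other strand, Psmb9 with its neighbour Tap1. Of 19 listed genes of antigen presentation, 15 had 1 CPM or more in every WT library of liver and cerebellum, and with TMM factors these 15 were lower in cerebellum, as were 51.8% of all genes past that limit. In liver and testes 16 did, and these 16 were lower in testes, as were 53.7% of all genes past it.

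Shares within an exchangeable pair put these levels on one scale. Per exon length, Psmb8 made up 4.18% ± 0.29 of the sum of Psmb8 and Psmb5 in WT liver (SD, n = 4), 0.629% ± 0.247 in cerebellum and 0.611% ± 0.0999 in testes. Psmb9 made up 4.80% ± 0.59, 0.589% ± 0.288 and 0.219% ± 0.054 of its sum with Psmb6. Psmb10 had the largest shares against Psmb7, at 40.0% ± 2.2 in liver, 17.7% ± 1.7 in cerebellum and 6.76% ± 0.44 in testes, 3 ranges that did not overlap. Exons of Psmb7 overlap those of Nek6 on the other strand, so the Psmb10 shares are uncertain. The shares also depend on the summed exon lengths, which were 3381 bases for Psmb8 but 899 for Psmb5. For Psmb10 and Psmb7 they were 1705 and 3421 bases. By counts alone the mean log2 ratios in WT liver were -2.61 for Psmb8, -3.35 for Psmb9 and -1.59 for Psmb10. Shares are therefore better compared between tissues than between pairs. The constitutive transcript exceeded its immune counterpart in all 3 tissues. Psma8 made up 89.3% ± 0.7 of its sum with Psma7 in WT testes, and 2.35% or less in every WT library of the other tissues.

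**Figure D2:**
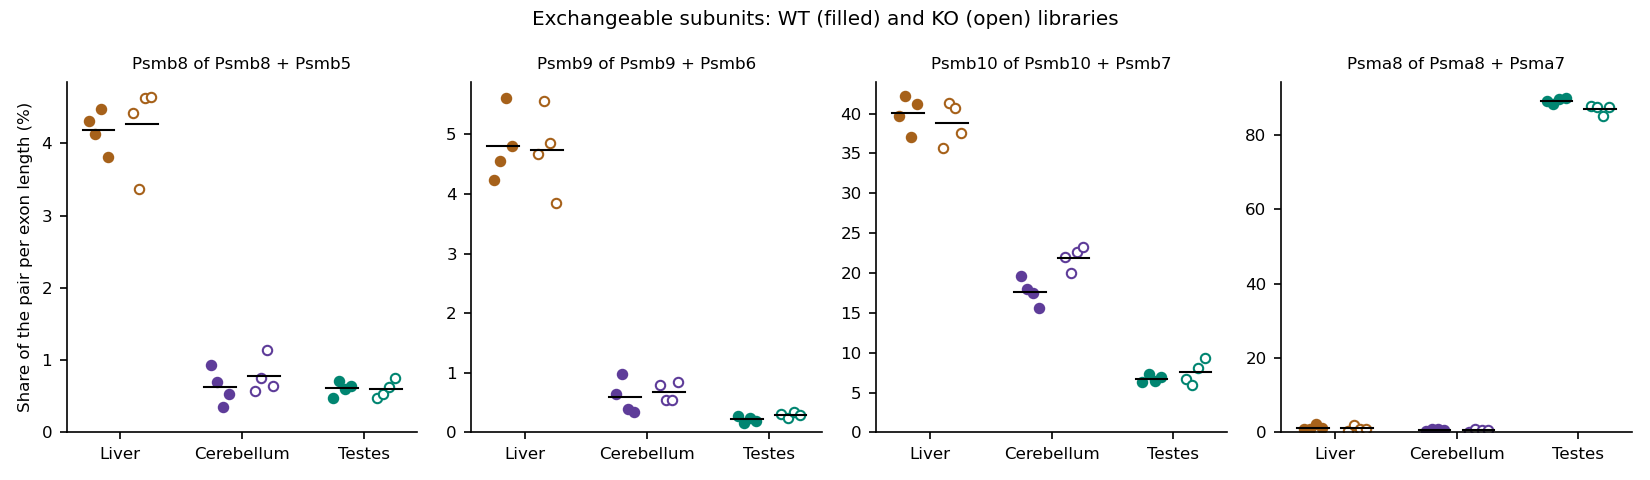
Share of the exchangeable subunit in its pair per exon length, in percent, for each WT (filled) and KO (open) library of the 3 tissues, with lines at the group means. Immune shares are highest in liver, Psma8 takes over 85% of its pair in every testes library, and the Psmb10 share of the KO cerebellum libraries lies above that of the WT libraries.

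Across all members the tests between WT tissues gave many calls, as they did for genes at large. Of 48 members tested with TMM factors, Psmb8, Psmb9 and Psme2b passed the filter on low values only through liver and Psma8 only through testes, so the counts leave these 4 out. The other 44 had 1 CPM or more in every WT library, and 44 of them were lower in cerebellum than in liver, where 51.8% of genes past this limit in both tissues were lower and 38.3% higher. In testes 9 members were higher and 31 lower than in liver (background 38.2% and 53.7%), and 30 were higher and 7 lower than in cerebellum (background 42% and 46.8%). With the 4 included the counts were 48 lower in cerebellum than in liver (background 44.2% lower and 43.3% higher), 10 higher and 34 lower in testes than in liver (55.7% and 34.9%), and 31 higher and 7 lower in testes than in cerebellum (50.7% and 39.6%). By library totals, over the 44, there were 9 higher and 25 lower in cerebellum than in liver, 21 higher and 18 lower in testes than in liver, and 25 higher and 11 lower in testes than in cerebellum. Quantile normalization gave 23 higher and 16 lower in the last of these. The direction of some members hung on the scaling, while others kept theirs. By library totals without these factors the median member difference between cerebellum and liver moved from -1.62 to -0.42 on the log2 scale, while the median of all genes moved from -0.02 to 1.18. By 4 scalings, which were TMM, quantile, library total and library total without the abundant noncoding RNAs, 9 of the 44 members were higher in testes than in liver under each. They were Psma6, Psmc2, Psmc3, Psmd2, Psmd8, Psme3, Psme4, Psmf1 and Psmg2. Of all 48 members, 22 were lower in testes than in liver under each scaling and 16 changed sign. Between cerebellum and liver 32 were lower under each and 16 changed sign. Between testes and cerebellum 26 were higher and 10 lower under each, and 12 changed sign.

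The next comparisons asked what the loss of Thumpd1 does to these genes in each tissue. In cerebellum no member passed the test. Of 49 members, 44 were measured at 1 CPM or more in at least 4 libraries, and the missing ones were Psma8, Psmb8, Psmb9, Psmb11 and Psme2b. None was called higher and none lower at an adjusted p under 0.05 by limma-voom, against 3.93% of all tested genes higher and 2.51% lower. At an unadjusted p under 0.05 there were 12 of 44, where 24.2% of all tested genes were under it. The count hung on 1 library and on the tool, since without KO replicate 6 there were 6 calls higher (Psmb4, Psmc3, Psmc4, Psmd3, Psmd8 and Psme1) and 1 lower (Psme4), without WT replicate 2 there were 2 higher, and with sample weights 4. The median log2 change of the members was -0.002, and that of all genes -0.006. For the 31 constitutive 26S subunits every 95% interval lay between -0.26 and 0.27.

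In 8 of the 44 members all KO cerebellum libraries lay above all WT libraries, and in 0 below. That is 8 members without overlap, where 13.8% of all tested genes had none in either direction. Of all 16225 tested genes 1426 lay above in this way and 809 below. Psme1, a PA28 subunit, had 10.4, 9.18, 9.04 and 8.31 CPM in WT and 12.0, 10.5, 13.6 and 11.7 CPM in KO libraries. Its KO libraries were all above the WT ones, by little at the closest pair. Its log2 change was 0.35 ± 0.10 (SE, adjusted p = 0.054 by limma-voom), which just missed the threshold. edgeR, DESeq2 and voom with TMM factors each called it higher, as did voom with sample weights, so that 4 of 8 other analyses did. With 1 library left out it was called in 1 of 8 cases. Psmb4, a core subunit without an active site, had 33.2 to 37.0 CPM in WT and 38.3 to 40.9 CPM in KO libraries, a log2 change of 0.17 ± 0.05 (adjusted p = 0.061).

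No ATPase of the cap was called. In 3 of 6, Psmc2, Psmc4 and Psmc5, the KO libraries were all above the WT ones, and 5 of 6 had a change above zero with a list median of 0.10, where 7825 of all 16225 tested genes were above zero. Psmc4 had 44.9, 45.4, 44.3 and 41.6 CPM in WT cerebellum and 48.0, 46.5, 53.7 and 50.3 CPM in KO. Its change of 0.16 ± 0.05 had an adjusted p of 0.091. Of the alpha subunits 6 of 7 were below zero, with a list median of -0.02, and only Psma1 among them had no overlap. The remaining members without overlap were Psme3 and Psmd3, the latter with an antisense neighbour, Gm12356, that shares exonic bases with it.

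The share of Psmb10 also stood apart in cerebellum. It was 19.6%, 18.0%, 17.5% and 15.6% of its sum with Psmb7 in WT libraries and 21.99%, 19.97%, 22.6% and 23.2% in KO libraries. The KO mean was 21.95% ± 1.41 (SD, n = 4) and the groups did not overlap, by 19.6% against 19.97% at the closest pair. Among the levels of all tested genes 13.8% had no overlap in this tissue, and the counts of Psmb7 are uncertain, as given above. In the fit Psmb10 changed by 0.30 ± 0.12 on the log2 scale with an adjusted p of 0.155, and its own levels overlapped. Psmb8 and Psmb9 were too low in cerebellum to be tested, with shares between 0.339% and 1.13% in both genotypes that overlapped. The summed level of 13 immune cell markers was 54.3 to 63.2 CPM in WT and 62.9 to 66.0 CPM in KO cerebellum, with 0 of 8 tested markers called, and its part in these values was not tested. Choroid plexus, tissue that can come along in a dissection, varied as well. The summed level of its 5 markers was 9.42 to 1060 CPM in WT and 11.9 to 351 CPM in KO cerebellum, ranges that overlapped, and its part in the values of Psme1 and Psmb10 was not tested.

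Among 29 listed genes that work with the proteasome, 4 rose in KO cerebellum and 0 fell, against 3.93% of all tested genes higher and 2.51% lower. Pomp, the chaperone that matures the beta rings, had 35.4, 36.9, 37.1 and 36.4 CPM in WT and 43.4, 41.1, 41.0 and 43.1 CPM in KO libraries. The groups were well apart, and the change was 0.20 ± 0.04 (SE, adjusted p = 0.020), a call that was lost with 4 of the 8 libraries left out in turn. Vcp, the ATPase that pulls substrates out of complexes, rose by 0.16 (adjusted p = 0.011), and the ubiquitin gene Ubb rose by 0.17 (adjusted p = 0.044) with overlapping libraries. The call of Ubb was lost with 6 of the 8 libraries left out in turn. Nfe2l1 had a change of 0.08 (adjusted p = 0.195) and Ddi2 one of 0.04 (adjusted p = 0.512). Of 16 tested genes of the antigen presentation list 1 rose and 0 fell. It was Irgm1, an interferon-induced GTPase, which went from 4.57 to 4.90 CPM in WT to 6.59 to 7.16 CPM in KO. Of 6 cerebellar neuron markers 2 fell and 1 rose, and their part in these results was not tested.

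In liver no member passed the test either. With 47 of 49 members tested, none was called, against 2.79% of all genes higher and 3.12% lower, and 7 had an unadjusted p under 0.05, where 23.3% of all genes did. Without WT replicate 4 Psmg2 was called lower, and with sample weights 1 member was called higher and 2 lower. The members that were not tested were Psma8 and Psmb11. In 2 members the libraries did not overlap (background 12.7%), with Psmd9 above and Psmd5 below. Psmd9 shares exonic bases with Gm26745, which lies antisense to it. The constitutive 26S subunits had intervals between -0.36 and 0.41.

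The median log2 change of all genes in liver was -0.003. All 7 alpha subunits had a change above zero, with a list median of 0.14 and a range from 0.02 to 0.21, but none was called. Psma6 had 40.4, 37.0, 37.1 and 32.9 CPM in WT and 41.2, 42.8, 40.0 and 43.4 CPM in KO liver. The KO values were mostly higher but 1 WT library reached into their range, and the change was 0.21 ± 0.06 (SE, adjusted p = 0.073). Of the 7 assembly chaperones 5 were below zero, with a list median of -0.24. Psmd5, which holds the ATPase ring during assembly, had 26.5, 25.8, 23.3 and 21.5 CPM in WT and 20.6, 20.6, 19.9 and 20.99 CPM in KO liver. Every KO library was below every WT library, and the change was -0.24 ± 0.06 (adjusted p = 0.058). Psmg2, a chaperone of the alpha ring, changed by -0.46 ± 0.15 (adjusted p = 0.096).

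The immune members, highest in this tissue, showed no call between genotypes in liver. Psmb8 had 9.04 to 13.3 CPM in WT and 9.53 to 12.5 CPM in KO, Psmb9 7.04 to 10.3 and 7.97 to 9.53 CPM, and Psmb10 15.4 to 19.5 and 16.0 to 21.4 CPM. All 3 ranges overlapped. The shares overlapped as well, with 4.26% ± 0.61 for Psmb8, 4.73% ± 0.70 for Psmb9 and 38.8% ± 2.7 for Psmb10 in KO (SD, n = 4). Over the 6 immune members tested the intervals of the log2 change ran from -0.48 to 0.47. Of the antigen presentation list Tapbp, which loads peptides onto class I molecules, fell by 0.22 (adjusted p = 0.046), 1 of 19 tested with 0 higher. The call of Tapbp was lost with each of the 8 libraries left out in turn. Of the 29 associated genes Ubqln1 and Ubqln4, which shuttle ubiquitinated proteins to the proteasome, fell by 0.24 and 0.32 on the log2 scale (adjusted p = 0.023 and 0.015), and 0 rose. These calls were lost with 4 and 1 of the 8 libraries left out in turn. All are read against the 2.79% of genes higher and 3.12% lower. The liver libraries varied in noncoding RNA and in depth, and 2 KO libraries had 18145725 and 19958739 counts while the others had 30258515 and 37889615. In Psmd8 these 2 shallower libraries had 56.5 and 53.9 CPM and the other 2 KO libraries 77.1 and 77.5 CPM.

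The constitutive active-site subunits and the other activators were not called in either tissue. In cerebellum Psmb5 changed by 0.09, Psmb6 by 0.12 and Psmb7 by -0.07, and in liver by -0.07, 0.05 and 0.14 in the same order, all with overlapping libraries and adjusted p of 0.199 or more. Psmb5 had 27.8 to 31.9 CPM in WT and 30.1 to 33.6 CPM in KO cerebellum, and 60.8 to 81.3 and 63.2 to 72.7 CPM in liver. Psme3 changed by 0.06 in cerebellum and -0.08 in liver. Psme4 changed by -0.09 in cerebellum, from 96.7 to 98.7 CPM in WT to 88.3 to 96.9 CPM in KO (adjusted p = 0.16), and by -0.08 in liver. Nfe2l2, a relative of Nfe2l1 that answers oxidative stress, changed by -0.14 in cerebellum and -0.20 in liver (adjusted p = 0.294 and 0.107), and the ubiquitin receptor Adrm1 by 0.10 and -0.07 (adjusted p = 0.295 and 0.558).

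**Figure D3:**
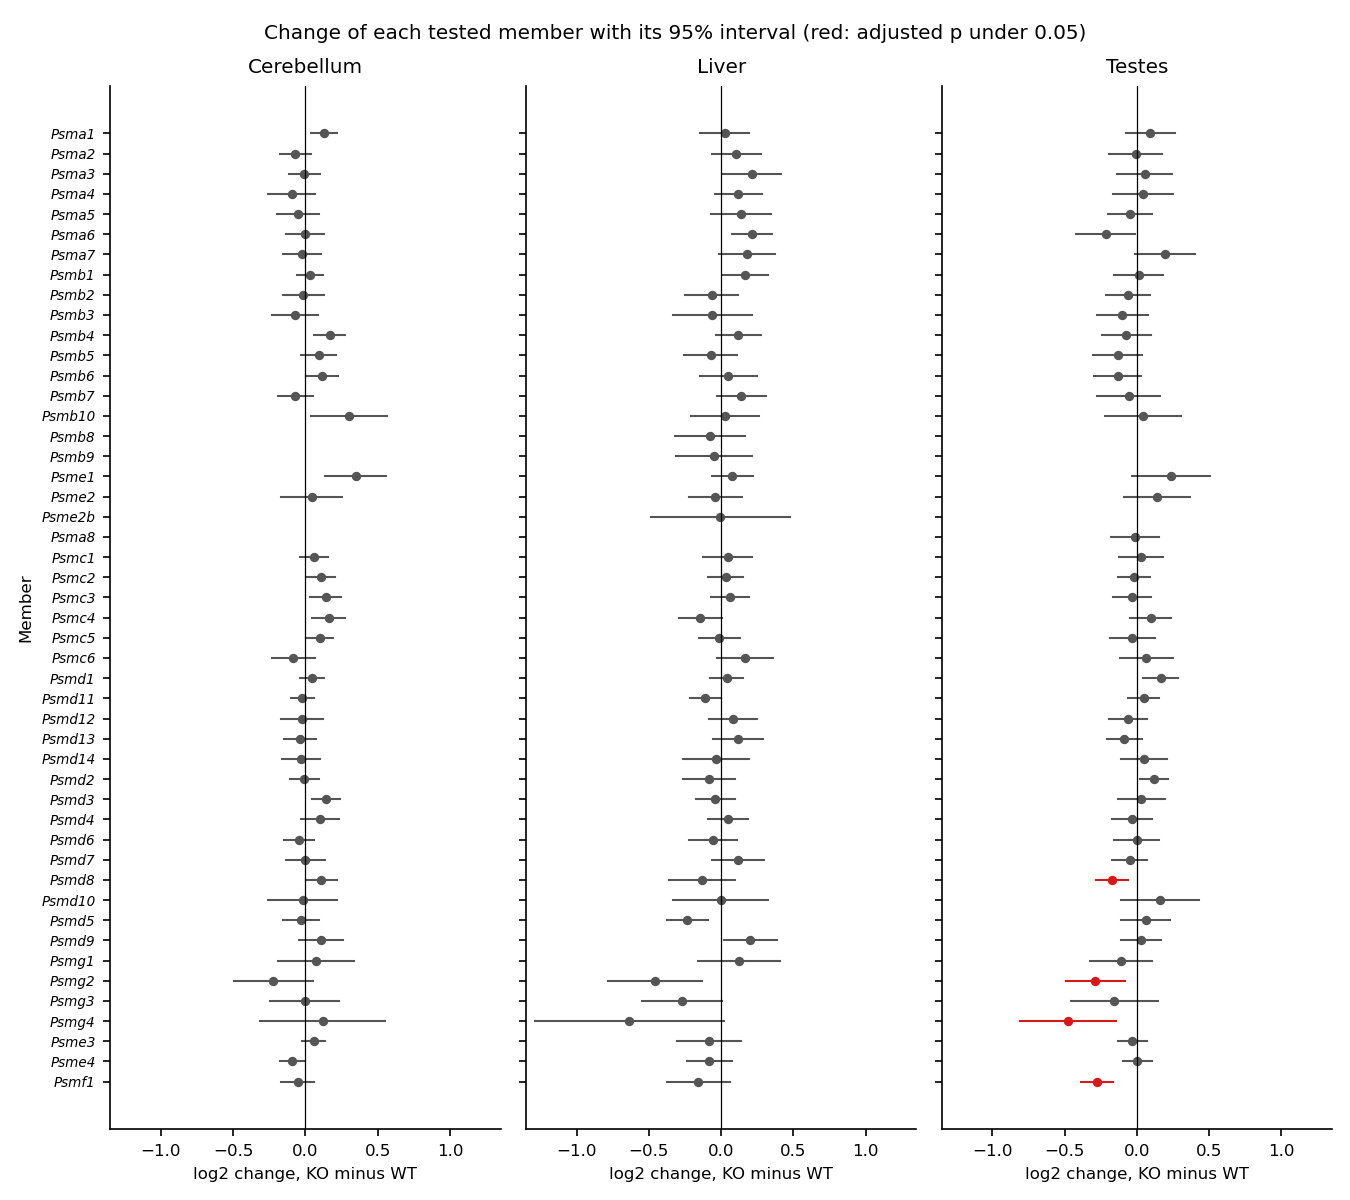
Log2 change (KO minus WT) of each tested member in cerebellum, liver and testes with its 95% interval, with members ordered by role from the alpha subunits at the top. Most intervals span zero, and the only called members are Psmd8, Psmg2, Psmg4 and Psmf1, all lower in KO testes.

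In testes 4 of 45 tested members fell and 0 rose, where 10.7% of all tested genes fell and 9.74% rose. The members that fell were thus 8.89% of those tested, close to the share of genes at large. The members not tested were Psmb8, Psmb9, Psmb11 and Psme2b. Those that fell were the inhibitor Psmf1, the cap subunit Psmd8 and the assembly chaperones Psmg2 and Psmg4. The median log2 change of the members was -0.01, and 1 of the 31 constitutive 26S subunits was called. In 6 members the KO and WT libraries did not overlap, against 28.6% of all genes. Without any 1 of the WT libraries, or without KO replicate 7, Psmf1 was the 1 member called lower, and without KO replicate 8 there were 2 calls in each direction.

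Psmf1 (chr2:151715812-151744186 in mm10, minus strand) had the clearest change. It had 338, 352, 371 and 360 CPM in WT testes and 285, 288, 263 and 304 CPM in KO testes. All KO libraries were well below all WT libraries. Its log2 change was -0.27 ± 0.05 (SE, adjusted p = 0.006 by limma-voom), and it was called in all 8 other analyses and with each of the 8 libraries left out. In KO cerebellum the change of Psmf1 was -0.05 and in KO liver -0.16, neither of them called.

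Psmd8, a cap subunit on chr7:29174188-29180701 (minus strand), had 249, 248, 262 and 254 CPM in WT and 230, 231, 221 and 201 CPM in KO testes. The groups did not overlap, and the change was -0.17 ± 0.05 (adjusted p = 0.037). The call of Psmd8 held with 3 of the 8 libraries left out in turn. Psmg2 had 19.4, 19.6, 18.8 and 18.6 CPM in WT and 19.6, 17.1, 16.6 and 14.5 CPM in KO, with 1 KO library as high as the WT ones. Its change was -0.29 ± 0.09 (adjusted p = 0.049). Psmg4, a chaperone of the alpha ring on chr13:34162964-34178173 (plus strand), was low, with 2.18, 2.08, 1.81 and 2.14 CPM in WT and 1.86, 1.83, 1.31 and 1.42 CPM in KO. Its groups overlapped, and the change was -0.48 ± 0.15 (adjusted p = 0.045). Of 8 other analyses 2 called Psmg2 and 3 called Psmg4, and with 1 library left out in turn the calls held in 1 and 2 of 8 cases. In KO liver Psmg4 changed by -0.63, with a 95% interval from -1.29 to 0.02, and in KO cerebellum by 0.12.

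**Figure D4:**
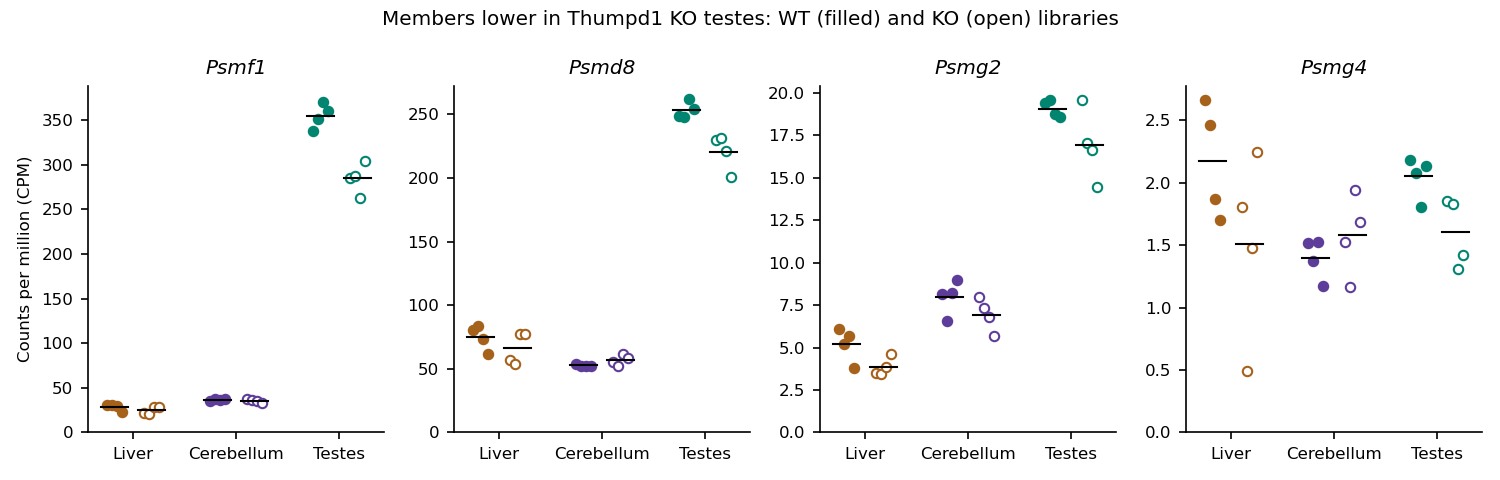
CPM of the 4 members called lower in KO testes, for each WT (filled) and KO (open) library of the 3 tissues, with lines at the group means. The KO testes libraries of Psmf1 and Psmd8 lie below all WT testes libraries, while those of Psmg2 and Psmg4 overlap them.

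The testis-type subunit was not called. Psma8 had 109, 103, 107 and 109 CPM in WT and 121, 111, 105 and 92.3 CPM in KO testes, so the KO libraries spread to both sides of the WT ones. Its log2 change was -0.01 ± 0.07 with a 95% interval from -0.18 to 0.15. Psma7 had 16.5, 16.8, 15.1 and 15.1 CPM in WT and 20.5, 19.2, 22.7 and 16.0 CPM in KO, with overlap at 1 KO library and a change of 0.20. The share of Psma8 in this pair was 88.3% to 89.9% in WT and 87.9%, 87.7%, 85.1% and 87.7% in KO testes. The groups did not overlap, by 88.3% against 87.9% at the closest pair, where 28.6% of all tested genes had no overlap in their levels. Psme4, the activator of spermatids, had 707 to 782 CPM in WT and 654 to 762 CPM in KO testes, with a change of 0.004 under quantile normalization but -0.14 under TMM factors, neither called.

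The active-site and immune members were not called in testes. Psmb5 and Psmb6 each changed by -0.13 and Psmb7 by -0.06, with overlapping libraries. Psme2 had 6.35, 6.30, 5.14 and 5.72 CPM in WT and 6.49, 6.78, 8.31 and 6.47 CPM in KO testes. All KO libraries were above the WT ones, by little apart from KO replicate 7, and the change of 0.14 had an adjusted p of 0.349. Psme1 changed by 0.24 ± 0.12 (SE, adjusted p = 0.187), again with its highest value, 16.0 CPM, in KO replicate 7. Psmb10 changed by 0.04, and its share was 6.76% ± 0.44 in WT and 7.52% ± 1.51 in KO (SD, n = 4), with overlap. The summed level of the 13 immune cell markers was 234.8 to 240.3 CPM in WT and 193.9 to 221.2 CPM in KO testes, ranges that did not overlap. Of 10 tested markers 1 was called lower and 0 higher, while 6 had a change above zero and 4 below. Their part in the values of Psme1, Psme2 and Psmb10 was not tested.

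Of the subunits that were high in WT testes, Psma6 was uneven among the KO libraries. It had 220, 221, 168 and 161 CPM in KO testes, where WT libraries had 214 to 237 CPM. KO libraries 5 and 6 lay within the WT range and 7 and 8 far below it. The change was -0.21 ± 0.09 (adjusted p = 0.119), and 3 of 8 other analyses called it lower. Over the median alpha subunit Psma6 stood 10.3 ± 1.6 times in KO against 12.6 ± 0.4 times in WT (SD, n = 4), and these ranges did not overlap. Psmc3 stood 4.55 to 4.97 times above the median ATPase in KO and 4.92 to 5.07 times in WT, ranges that overlapped. Psmd2, the highest of the other cap subunits, had 335 to 347 CPM in WT and 346 to 366 CPM in KO testes, with a change of 0.12 (adjusted p = 0.08) that was not called. The ratio of the highest to the lowest mean of a class was 24.5 in KO and 35.4 in WT for the alpha subunits, 6.12 and 6.71 for the beta subunits, 13.96 and 16.3 for the ATPases and 8.66 and 9.1 for the other cap subunits. Psmd1, the largest scaffold subunit of the cap, had a change of 0.16 ± 0.05 (adjusted p = 0.052), and its exons overlap those of Htr2b on the other strand.

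Associated genes moved both ways in testes. Nfe2l1, the factor that induces proteasome genes, had 94.8, 95.03, 94.3 and 90.6 CPM in WT and 101, 103, 134 and 125 CPM in KO. Every KO library was above every WT library, and the change was 0.29 ± 0.09 (SE, adjusted p = 0.044). Ddi2, the protease that activates it, had 40.9 to 42.5 CPM in WT and 46.9 to 57.7 CPM in KO, a change of 0.24 ± 0.07 (adjusted p = 0.030). The calls of Nfe2l1 and Ddi2 were each lost with 6 of the 8 libraries left out in turn, and both held only without KO replicate 5 or without KO replicate 6. Of 29 associated genes 2 rose and 1 fell, against 9.74% and 10.7% of all genes. Pomp changed by 0.08, Nfe2l2 by 0.15 and Adrm1 by -0.10, none of them called. Of the antigen presentation list with 16 tested, 1 rose and 1 fell. H2-K1 rose by 0.29 (adjusted p = 0.041 by limma-voom), a call lost with 6 of the 8 libraries left out in turn. Nlrc5, which drives class I genes, fell by 0.62 (adjusted p = 0.003 by the same test). The summed level of the immune cell markers was lower in KO testes, as given above, but 6 of the 10 tested markers had a change above zero. The part of immune cells in the value of Nlrc5 was not tested.

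Markers of germ cells and their supporting cells moved in the same libraries. Among all genes 10.7% fell and 9.74% rose. Of 8 round spermatid markers 4 fell and 0 rose, and their summed level was 1180 to 1224 CPM in WT and 952 to 1147 CPM in KO. Of 7 elongating spermatid markers 4 fell, with sums of 13190 to 13940 CPM in WT and 9984 to 12460 CPM in KO. Of 8 Sertoli cell markers 6 rose, with sums of 1130 to 1297 CPM in WT and 1462 to 2072 CPM in KO. The ranges of all 3 sums did not overlap between genotypes. Of 10 spermatocyte markers 1 fell, and their sums of 1694 to 1893 and 1631 to 1932 CPM overlapped. Of the 9 members higher in WT testes than in WT liver by every scaling, Psmf1, Psmd8 and Psmg2 fell in KO testes. The others were not called, with changes of -0.21 for Psma6, -0.03 for Psmc3, -0.02 for Psmc2, -0.03 for Psme3, 0.004 for Psme4 and 0.12 for Psmd2, and Psma8, far higher in WT testes, had a change of -0.01. The part of cell composition in these values was not tested.

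Whether the KO effect on a member differed between tissues was tested over all 24 libraries, for the 44 members measured in all 3. Between cerebellum and liver 1 member differed. This was Psmc4, whose effect was more positive in cerebellum by 0.34 ± 0.09 on the log2 scale (SE, adjusted p = 0.018), where 3.9% of all genes were called in that direction and 3.77% in the other. Between testes and liver the effect of Psma6 was more negative in testes by -0.57 ± 0.13 (adjusted p = 0.006) and that of Psmd13, a cap subunit whose exons overlap those of Sirt3 on the other strand, by -0.27 (adjusted p = 0.022). That of Psmd5 was more positive by 0.27 (adjusted p = 0.049). The call of Psmd5 was lost with 18 of the 24 libraries left out in turn, and those of Psmc4 and Psmd13 with 1. The calls of Psmc4 and Psmd13 also ended when genes needed 1 CPM in at least 4 libraries of any tissue, in place of each tissue. The backgrounds were 7.92% more negative and 7.95% more positive.

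Between testes and cerebellum 6 members differed, all with a more negative effect in testes, against a background of 7.42% more negative and 7.13% more positive. They were Psmd8 with a difference of -0.44, Psmf1 with -0.40, Psmb6 with -0.38, Psmc3 with -0.35, Psmb4 with -0.31 and Psmc2 with -0.29, at adjusted p from 0.018 to 0.047. None of the 6 differed in this way under quantile normalization, where 0 members were called, nor under the filter met in any tissue, which also called 0. Leaving out libraries in turn ended the call of Psmb4 in 13 of 24 cases, that of Psmb6 in 12 and that of Psmc3 in 3. The contrasts share libraries and are not independent of each other.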

How the data were processed

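Total RNA of both genotypes (n = 4 libraries per genotype and tissue) was made into stranded total RNA libraries after removal of ribosomal RNA. The authors deposited expected counts per gene, for which reads had been aligned to mm10 by STAR and assigned to GENCODE M21 genes by RSEM. Tool versions and the strand setting are not given in the sources used here. Between 12.3% and 16.6% of nonzero values in a library were not whole. Libraries were taken as separate samples, as labelled. If mice were shared or pooled, p-values measure technical spread only.

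Genes with at least 1 CPM in at least 4 libraries were quantile normalized and compared by limma-voom (limma 3.58.1, R 4.3.3) within each tissue, with Benjamini-Hochberg adjustment over all tested genes and a threshold of 0.05. Tissue contrasts used TMM factors from edgeR 4.0.16, over 24 libraries for KO effects and 12 for WT. DESeq2 1.42.0 and edgeR on rounded counts, other filters, weights and scalings, and single libraries left out were alternatives. Library-total scaling of WT tissues and its form without noncoding RNAs, the between-tissue fit without noncoding RNAs, and counts limited to genes at 1 CPM or more in both WT tissues were added after seeing the data. Per-length levels divide counts by summed exon length of the annotation. Pairs of libraries in a group differed by more than sampling noise (chi-square per gene of at least 2.31). Scripts were tested on simulated data.

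The members and gene lists were chosen with earlier results of these data known. Values are given for exchangeable subunits, PA28 and other activators, called members, Nfe2l1, Ddi2 and Pomp, and called genes of the lists. Psma1, Psma6, Psmb4, Psmc2, Psmc3, Psmc4, Psmc5, Psmd1, Psmd2, Psmd3, Psmd5, Psmd9, Psmd13, Psmd14, Psmg1 and Psmg3 were named after their values were seen. Of the associated genes, Paaf1 was not found under that symbol, and a few called genes that enter the counts are not reported here. Intervals and the floor of 3 counts cover counting error or library spread only.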

Additional observations from a re-analysis of the deposited data

Results flagged for a closer look

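The KO effect differed between tissues in 10 of 132 tests on members, which were 44 in each contrast. These were 2.27%, 6.82% and 13.6% of the members tested between cerebellum and liver, testes and liver, and testes and cerebellum, where 7.67%, 15.9% and 14.5% of all genes differed in either direction. Between cerebellum and liver it was more positive in cerebellum by 0.34 for Psmc4. Between testes and liver it differed by -0.57 for Psma6, -0.27 for Psmd13 and 0.27 for Psmd5. Between testes and cerebellum it differed by -0.35 for Psmc3, -0.31 for Psmb4, -0.38 for Psmb6, -0.29 for Psmc2, -0.44 for Psmd8 and -0.40 for Psmf1 on the log2 scale, none of which was called under quantile normalization or a filter met in any tissue. That filter also ended the calls of Psmc4 and Psmd13.

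In 7 of 140 groups of 4 libraries, 1 library lay far from the other 3, as chance does in about 1 group of 20. In KO testes replicate 7 Psme1 had 16.0 CPM against 10.4 to 11.3 CPM in the others, Psme2 had 8.31 CPM against 6.47 to 6.78 CPM, and the share of Psma8 was 85.1% against 87.7% to 87.9%. In KO testes replicate 8 Psmb6 had 91.5 CPM against 109.9 to 112.8 CPM. Psme4 had 91.0 CPM in KO liver replicate 8 against 84.1 to 85.0 CPM, Irgm1 had 4.57 CPM in WT cerebellum replicate 2 against 4.85 to 4.90 CPM, and Nfe2l1 had 90.6 CPM in WT testes replicate 4 against 94.3 to 95.03 CPM.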

How the results depend on the processing

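The count of members called higher in KO cerebellum, 0 in the main analysis, was 1 with TMM factors (Psme1), 2 with edgeR (Psmb4, Psme1), 1 with DESeq2 and 4 with sample weights. In liver it went from 0 to 1 with sample weights, and the count called lower to 1 with DESeq2, 2 in one fit over 24 libraries and 2 with sample weights. In testes the count called lower, 4, was 2 with edgeR, 1 without a filter and 2 with sample weights, and that called higher, 0, was 1 in one fit over 24 libraries and 3 with sample weights. With 1 library left out these counts ran from 0 to 6 higher and 0 to 1 lower in cerebellum, 0 to 1 lower in liver, and 0 to 2 higher and 1 to 5 lower in testes. Without KO cerebellum replicate 6 there were 6 calls higher and Psme4 lower, and without WT replicate 2 there were 2 higher. Without any WT testes library, or without KO testes replicate 7, 1 member was called lower, which was Psmf1. Without KO testes replicate 8 there were 2 calls in each direction. Without WT liver replicate 4 Psmg2 was called lower. The cause was not tested.

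Signs turned for members without a call. With sample weights Psmb10 was -0.022 and Psmb6 -0.00674 in liver, and Psma8 was 0.063, Psmb10 -0.0603, Psmb7 0.065 and Psmc3 0.047 in testes. Psme4 in testes was -0.14 with TMM factors, -0.14 with edgeR and -0.14 with DESeq2. With 1 library left out the ranges were -0.064 to 0.018 for Psma7 and -0.0047 to 0.11 for Psme2 in cerebellum. In liver they were -0.044 to 0.11 for Psmb10, -0.027 to 0.11 for Psmb6, -0.12 to 0.032 for Psmb9 and -0.11 to 0.0035 for Psme2. In testes they were -0.074 to 0.055 for Psma8, -0.014 to 0.097 for Psmb10, -0.11 to 0.051 for Psmb7, -0.066 to 0.023 for Psmc3 and -0.022 to 0.029 for Psme4.

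The KO effects that differed between cerebellum and liver went from 1 to 0 under a filter met in any tissue, and those between testes and cerebellum from 6 to 0 under that filter and to 0 under quantile normalization. With 1 library left out they ran from 0 to 1, from 3 to 8, and from 1 to 5 between testes and liver. Between WT tissues, over all 48 members tested, which include the 4 that passed the filter through 1 tissue, library totals gave 9 members higher and 29 lower in cerebellum than liver, 22 higher and 21 lower in testes than liver, and 11 lower in testes than cerebellum. Library totals without noncoding RNAs gave 5 and 16 higher in the first and second of these, and 14 lower in the third, where quantile normalization gave 19 lower. Over the 44 other members the counts, in the same order, were 9 and 25, 21 and 18, and 11, then 5, 15 and 14, and 16 with quantile normalization. Labels share replicate numbers across tissues within a genotype, but of 24 same-numbered pairs 10 had deviations correlated over 0.1, which were 8 of 12 KO and 2 of 12 WT pairs, and 9 matched best with their own number, so the numbers were not taken to pair the samples. All 4 KO pairs of testes and liver were over 0.1, from 0.112 to 0.159. With the replicate number as a block 1, 3 and 6 KO effects differed, as without it, and the block gave 36 in place of 34 members lower in testes than liver. Low counts limit Psmb8, Psmb9 and Psma8 outside the tissues where they are high.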
